A study of Homo sapiens with 6 samples.

Results

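Small Cajal body RNAs (scaRNAs, gene symbols starting with SCARNA) were taken from the deposited short RNA table as the rows of non-coding RefSeq transcripts whose RefSeq symbol starts with SCARNA. This selected 7 of 3437 rows, namely SCARNA9L, SCARNA4, SCARNA12, SCARNA7, SCARNA13, SCARNA18 and SCARNA8. No measured value entered the choice. The rows came from sequencing of short RNA, with 3 samples of Caco2 WT cells and 3 of PIWIL2 KO cells. Caco2 is an established human colon epithelial cell line, and the PIWIL2 KO cells are a single Caco2 clone obtained with CRISPR/Cas9 and a guide RNA against PIWIL2, a PIWI protein that binds small RNAs. The study describes this clone as carrying an unaffected PIWIL2 allele beside the edited one. Neither genotype received a further treatment according to the labels. All rows of non-coding transcripts in the table lie on the minus strand, so scaRNA genes of the plus strand were not analysed here.

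ScaRNAs are guide RNAs that reside in Cajal bodies, nuclear bodies in which the RNAs of the spliceosome mature. Like small nucleolar RNAs (snoRNAs), they pair with a target RNA and bring a modifying enzyme to it, and most of them are cut from introns of a host gene. A box C/D guide positions fibrillarin, which methylates the ribose of the target base, whereas a box H/ACA guide positions dyskerin, which turns uridine into pseudouridine. The targets of snoRNAs are mainly ribosomal RNAs, and those of scaRNAs are mainly spliceosomal small nuclear RNAs.

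SCARNA9L is a copy of SCARNA9, also called mgU2-19/30, a tandem box C/D scaRNA that guides methylation of U2 small nuclear RNA. In hg19, which is the same build as GRCh37, the SCARNA9L row starts at position 20154184 on the minus strand of chromosome X, and its alignment with SCARNA9 placed its 5′ end at 20154528. It lies in an intron of EIF1AX, a translation initiation factor, between exon boundaries at 20153959 and 20156657. SCARNA9 itself lies on the plus strand of chromosome 11 (93454679 to 93455031) and was not analysed here. Over 349 aligned positions the pair had 325 identical bases, 19 mismatches and 5 gap positions, an identity of 93.1%.

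The annotation (GENCODE release 44 mapped to GRCh37) holds a pair of guide domains within SCARNA9L, named snoU2_19 and snoU2-30. They are printed with the aligned stretches of SCARNA9 because they carry the guide function of the gene and show where the copies differ. All sequences are DNA letters of GRCh37 from 5′ to 3′ on the strand of the gene. Capitals mark box C near the 5′ end of each domain (TGATGA, or the letters aligned to it) and every CTGA, the letters of box D.
SCARNA9L snoU2_19, chrX:20154424-20154503, minus strand: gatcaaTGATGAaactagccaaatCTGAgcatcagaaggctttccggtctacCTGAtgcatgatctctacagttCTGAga
SCARNA9 aligned stretch, chr11:93454708-93454787, plus strand: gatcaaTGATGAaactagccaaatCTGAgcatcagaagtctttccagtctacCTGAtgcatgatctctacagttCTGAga
SCARNA9L snoU2-30, chrX:20154184-20154253, minus strand: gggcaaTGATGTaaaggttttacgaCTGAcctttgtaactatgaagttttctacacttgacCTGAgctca
SCARNA9 aligned stretch, chr11:93454963-93455031, plus strand: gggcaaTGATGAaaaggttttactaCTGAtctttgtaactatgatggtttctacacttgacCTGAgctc

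The snoU2_19 domain was identical to SCARNA9 at 78 of 80 positions and the snoU2-30 domain at 64 of 69. With positions counted from 1 at the 5′ end of SCARNA9, the mismatches in the snoU2_19 domain were T68G and A75G. Those in the snoU2-30 domain were A296T, T308G, T314C, T329A and G331T, where SCARNA9 comes first. A296T changes the last letter of box C, so the second box C of SCARNA9L reads TGATGT.

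The guide letters next to box D were the same in both genes. In each domain of SCARNA9L the bases directly before a CTGA, with 1 base between, were complementary to U2 RNA, over 8 bases in snoU2_19 and over 10 bases in snoU2-30. SCARNA7, also called U90 and known to guide methylation of U1 RNA, had such a stretch of 8 bases against U1. The U2 letters are those of RNU2-2P and the U1 letters those of RNU1-1, and capitals mark the complementary bases.
SCARNA9L snoU2_19, chrX:20154474-20154491, minus strand: aacTAGCCAAAtctgagc
RNU2-2P, chr11:62609256-62609269, minus strand: cctTTTGGCTAaga
SCARNA9L snoU2-30, chrX:20154187-20154206, minus strand: tttCTACACTTGAcctgagc
RNU2-2P, chr11:62609243-62609258, minus strand: agaTCAAGTGTAGtat
SCARNA7, chr3:160232828-160232845, minus strand: attGGAGTGCAtctgagg
RNU1-1, chr1:16840704-16840717, minus strand: catTGCACTCCgga

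Guides of this kind methylate the base that pairs with the fifth base before box D. That base was position 19 of U2 for snoU2_19, position 30 of U2 for snoU2-30 and position 70 of U1 for SCARNA7. Of the 21 box C/D snoRNA genes of the table whose sequence could be read, 0 had a complement of at least 8 bases at this place to U1 or U2, the RNAs searched.

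The ends of the other genes are printed because the boxes there tell the kinds of scaRNA apart. Capitals mark ACA when it stands 3 bases before the 3′ end, as in box H/ACA RNAs, and otherwise the CTGA of box D or the TGATGA of box C.
SCARNA4, last 30 bases, chr1:155895749-155895778, minus strand: tcacagggctgactgtactacccaACActc
SCARNA8, last 30 bases, chr9:19063654-19063683, minus strand: tcgtaacggacagatacggggcagACAgat
SCARNA13, last 30 bases, chr14:95999692-95999721, minus strand: ttctgttgaacactaagtactgccACAagt
SCARNA18, last 30 bases, chr5:82360023-82360052, minus strand: gttgagtggtagtatatttctccaACAtaa
SCARNA7, first 30 bases, chr3:160232995-160233024, minus strand: tggaaaTGATGAaatagagataattgggtg
SCARNA7, last 30 bases, chr3:160232695-160232724, minus strand: tcattaaaatggtcctgtgatCTGAtccaa
SCARNA12, first 30 bases, chr12:7076740-7076769, minus strand: caggcTGATGAgactaaggcgaatgcgact
SCARNA12, last 30 bases, chr12:7076500-7076529, minus strand: agccacctgagcgcaaccttggatCTGAca

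By these letters on the gene's own strand, 4 of 7 scaRNA genes ended in the box H/ACA form (SCARNA4, SCARNA8, SCARNA13 and SCARNA18) and 3 of 7 had CTGA in the last 15 bases (SCARNA7, SCARNA9L and SCARNA12). SCARNA12, also called U89, is known as a mixed scaRNA that holds both kinds of box. Among snoRNA genes with a readable sequence, ACA at this place was found in 14 of 15 box H/ACA and in 1 of 21 box C/D genes. CTGA in the last 15 bases was found in 1 of 15 and in 19 of 21. Sequences could be read for 36 of the 96 snoRNA rows, since only their starts match the annotation, so these shares do not describe all rows.

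Of the 7 genes, 6 lie wholly between protein-coding exons of a host gene on the same strand. SCARNA4 (129 bases) lies in KHDC4, SCARNA7 (330 bases) in KPNA4, SCARNA8 (131 bases) in HAUS6, SCARNA12 (270 bases) in PHB2, and SCARNA18 (134 bases) in TMEM167A. SCARNA12 overlaps exons of PHB2 transcripts that are not protein-coding. SCARNA13, also called U93 and 275 bases long, lies in the long non-coding RNA gene SNHG10 and overlaps 2 of its annotated exons.

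The deposited values are CPM, that is read counts per 1000000 reads uniquely mapped to hg19, on the strand of the gene (sense) and on the opposite strand (antisense). Each genotype has 1 value per row and strand with no replicate named, so no replicate error exists and no test between genotypes was possible. Pooling over the 3 samples of a genotype is inferred here from how the values are labelled. A figure legend of the study describes its sequencing results as normalized averages over 3 replicates. An effect of the genotype and any other difference between the pooled libraries cannot be told apart. The steps between low values put a single read at 0.0776 CPM for Caco2 WT and at 0.0738 for PIWIL2 KO, and the read numbers given here are estimates on that basis. All intervals are exact 95% intervals from these reads. They cover counting error only, because amplified reads that carry no molecular identifier are not independent molecules.

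SCARNA9L was the most abundant scaRNA row by a wide margin and was higher in PIWIL2 KO. It had 98.1 sense CPM in Caco2 WT (92.8 to 103.7) and 245.9 sense CPM in PIWIL2 KO (237.7 to 254.4), or about 1265 and 3332 reads. The intervals did not overlap, and the value in PIWIL2 KO was 2.51 times that in Caco2 WT (2.35 to 2.68). A higher level of short RNA in such a bulk sample can come from more short RNA per cell or from more cells that hold it, which cannot be told apart here. The scaRNA genes are 129 to 345 bases long and the reads are of short RNA. All levels given here are thus those of short RNA from these genes, and full-length scaRNA was not measured as such.

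SCARNA7, the other box C/D scaRNA, was rare and also higher in PIWIL2 KO. It had 0.54 sense CPM in Caco2 WT (0.218 to 1.12) and 1.70 in PIWIL2 KO (1.08 to 2.55), or 7 and 23 reads. The ratio was 3.15, with an interval of 1.30 to 8.63 that lies above 1 but leaves its size open, and the intervals of the levels overlapped slightly.

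SCARNA12, the mixed scaRNA, did not differ beyond counting error. It had 5.04 sense CPM in Caco2 WT (3.89 to 6.43) and 4.65 in PIWIL2 KO (3.57 to 5.95), or 65 and 63 reads. The ratio was 0.923 (0.642 to 1.32), so a change of 2-fold in either direction lies outside the interval.

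Among the box H/ACA scaRNAs, SCARNA4 was the most abundant, at 7.21 sense CPM in Caco2 WT (5.82 to 8.84) and 8.19 in PIWIL2 KO (6.74 to 9.87). A 2-fold change also lies outside the counting interval of its ratio, 1.14 (0.854 to 1.51). SCARNA13 had 0.39 sense CPM in Caco2 WT (0.126 to 0.905) and 1.37 in PIWIL2 KO (0.844 to 2.19). This is about 5 and 19 reads, with a ratio of 3.51 (1.31 to 12.4). The abundant member of the group was thus nearly level, and the higher ratio belonged to a row with few reads.

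The row of SNHG10, the host gene of SCARNA13, listed the same pair of values, 0.39 and 1.37 sense CPM. It starts at 95999249 on chromosome 14, against 95999692 for SCARNA13, which lies within the gene, so these values are not a second measurement. The value of 1.37 CPM is not a whole number of reads within 0.006 CPM. Whether reads were divided between these overlapping rows was not tested, so the level, reads and intervals of SCARNA13 are uncertain. No other row started within 5000 bases of a scaRNA gene. SCARNA18 rested on 3 and 7 reads, at 0.23 and 0.52 sense CPM, and its ratio of 2.26 had an interval of 0.507 to 13.3. SCARNA8 was at the level of 1 read in each genotype, 0.08 and 0.07 sense CPM, at which no difference was detectable.

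**Figure D1:**
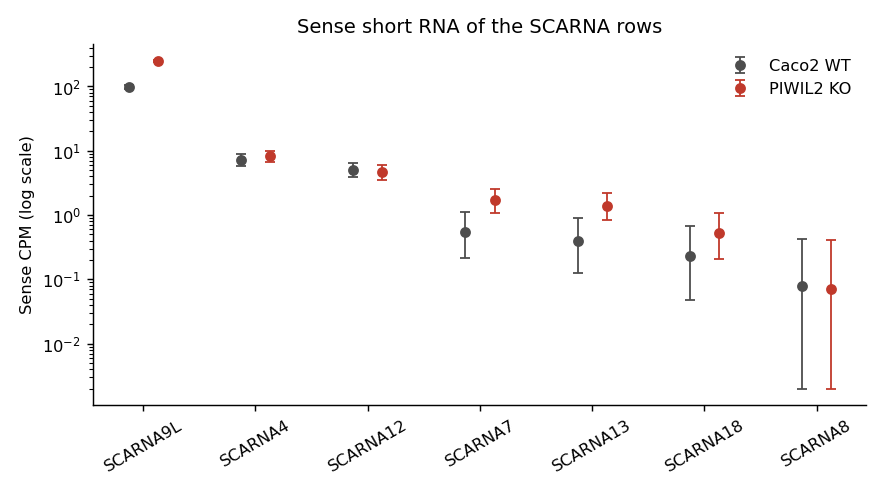
Sense CPM (log scale) of the 7 SCARNA rows in Caco2 WT (grey) and PIWIL2 KO (red), 1 pooled value per genotype, with bars for the exact 95% counting interval. SCARNA9L stands above all other rows, at 98.1 and 245.9 CPM, and the bars of SCARNA8, at 1 read in each genotype, span more than those of any other row.

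SCARNA9L dominated the summed scaRNA signal. The 7 rows together had 111.6 sense CPM in Caco2 WT and 262.4 in PIWIL2 KO, and SCARNA9L held 87.9% and 93.7% of this. Without it, the other 6 rows summed to 13.5 and 16.5 sense CPM, a ratio of 1.22 (1.00 to 1.50). The ratio of the full sum, 2.35 (2.21 to 2.50), thus rests mainly on SCARNA9L.

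The order of the levels was the same in both genotypes. It ran from SCARNA9L over SCARNA4, SCARNA12, SCARNA7, SCARNA13 and SCARNA18 to SCARNA8. SCARNA4 and SCARNA12 had overlapping intervals in Caco2 WT and separate ones in PIWIL2 KO. SCARNA7 and SCARNA18 likewise had overlapping intervals in Caco2 WT and separate ones in PIWIL2 KO (1.08 to 2.55 against 0.208 to 1.06 CPM), while those of SCARNA13 overlapped both in each genotype. Per kilobase of gene, SCARNA9L had 284.3 sense CPM in Caco2 WT and 712.8 in PIWIL2 KO, SCARNA4 had 55.9 and 63.5, and SCARNA12 had 18.7 and 17.2. The remaining rows had 0.61 to 1.72 CPM per kilobase in Caco2 WT and 0.53 to 5.15 in PIWIL2 KO. SCARNA9L thus stood above the other rows per unit of length as well.

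On the antisense strand, all 7 SCARNA rows were listed at 0 in both genotypes. Since up to 3 reads can go unseen, this limits their antisense level to 0.233 CPM for Caco2 WT and to 0.221 for PIWIL2 KO. All 96 snoRNA rows were at 0 antisense CPM too, as were 3262 of all 3437 rows. The short RNA of scaRNA genes was therefore detected on the strand of the gene alone at this depth.

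Counts and medians were taken over rows whose mean reached 0.3 sense CPM, which was the case for 6 of 7 SCARNA rows, SCARNA8 being below. The mean is over both genotypes, so a row can reach it through a single genotype. SCARNA18 (0.23 sense CPM in Caco2 WT and 0.52 in PIWIL2 KO) and SNORD90 (0.23 and 3.17) reached it only through PIWIL2 KO. The same holds for SNORD18B (0.16 and 1.33), SNORA71A (0.08 and 1.48) and SNORD99 (0.16 and 1.18). Such rows add to the counts of higher rows and to the medians by the choice itself. Log2 ratios were computed with a pseudocount of 0.1 CPM, so that those of rare rows are too small. Of the 6 rows, 5 were higher in PIWIL2 KO and 1, SCARNA12, was lower. Most snoRNA rows went this way too, with 69 of 81 higher. Over all 161 rows at the minimum, which include these snoRNA and SCARNA rows, 111 were higher. Of the 33 protein-coding rows, 14 were higher and 19 lower. The ratio intervals of SCARNA4 and SCARNA18 included 1. A ratio of at least 2-fold higher on this scale was found in 3 of the 6, namely SCARNA9L (log2 ratio 1.33), SCARNA7 (1.49) and SCARNA13 (1.58), and a ratio of at least 2-fold lower in 0. This count depends on the scaling, since it was 3 of 6 with PIWIL2 KO scaled to the median of protein-coding rows, 2 of 6, without SCARNA9L, with scaling to the sum of all sense rows, and 0 of 6 with scaling to the median of snoRNA rows. Among all rows at the minimum, 27.3% were at least 2-fold higher (44 of 161), and among snoRNA rows 39.5% (32 of 81). The share over all rows includes the snoRNA rows, and the share among protein-coding rows was 12.1% (4 of 33). A share over 6 rows is too coarse to set the scaRNAs apart from the snoRNAs. The median log2 ratio was 1.12 over the SCARNA rows, 0.63 over 64 box C/D and 0.73 over 17 box H/ACA snoRNA rows, and -0.07 over 33 protein-coding rows.

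**Figure D2:**
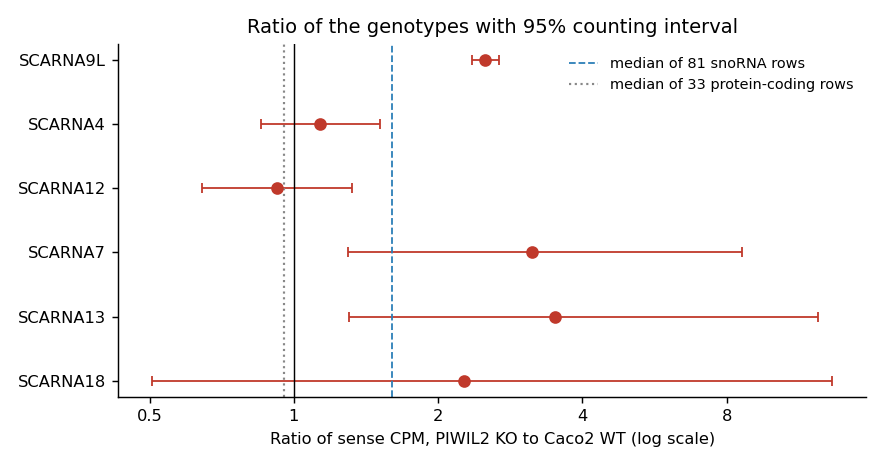
Ratio of sense CPM in PIWIL2 KO to Caco2 WT (log scale) for the 6 SCARNA rows at or above the minimum mean of 0.3 CPM, with bars for the exact 95% counting interval and a solid line at 1. The dashed blue and dotted grey lines are the medians of 81 snoRNA and 33 protein-coding rows, and the interval of SCARNA9L, 2.35 to 2.68, lies to the right of both lines while those of SCARNA4 and SCARNA12 lie to the left of the snoRNA median.

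Set beside the snoRNA rows one by one, SCARNA9L lay in the upper part of their range. Its log2 ratio was 0.65 above their median, and 23 of the 81 snoRNA rows had a higher one. The upper quartile of the snoRNA rows was 1.46 and the highest value 3.31, so its ratio lay within the range of the snoRNAs. By mean level, 6 snoRNA rows were above SCARNA9L. With a minimum mean of 10 sense CPM, 3 of 32 snoRNA rows had a higher log2 ratio. These were SNORD17, from 174.3 to 759.6 sense CPM, SNORD63 and SNORD119, which were looked up after the values were seen.

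SCARNA7 had 18 snoRNA rows with a higher log2 ratio and SCARNA13 had 15, whereas SCARNA4 had 64 and SCARNA12 had 76 of the 81 above them. The scaRNAs were therefore spread over the snoRNA range and did not form a group within it, as the plot of log2 ratio against mean level shows.

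**Figure D3:**
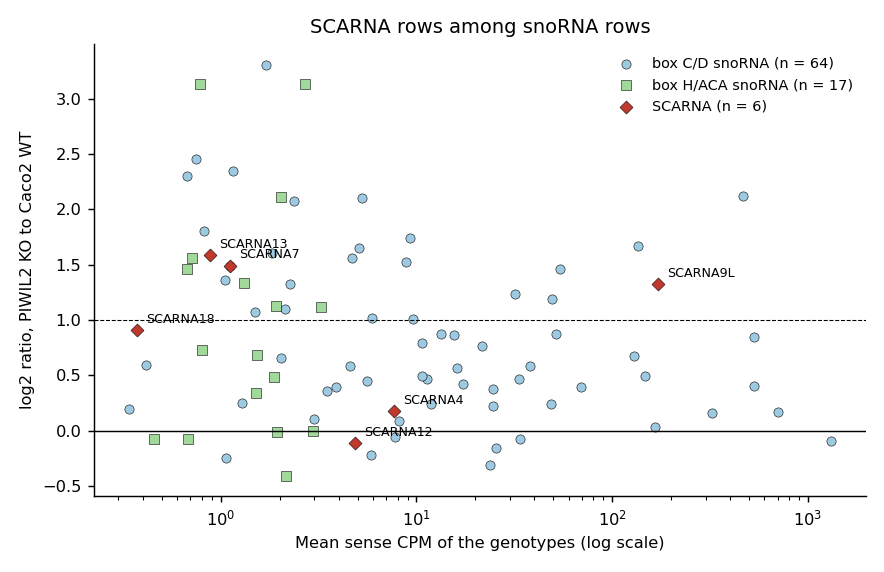
Log2 ratio of PIWIL2 KO to Caco2 WT against mean sense CPM (log scale) for 64 box C/D snoRNA rows (blue circles), 17 box H/ACA snoRNA rows (green squares) and 6 SCARNA rows (red diamonds), with a solid line at 0 and a dashed line at 2-fold higher. Most ratios above the dashed line belong to rows of low mean level, and SCARNA9L, at 1.33, is 1 of the few abundant rows above it.

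The snoRNA rows most like SCARNA9L in ratio were SNORD50B, SNORA71B, SNORD117, SNORD18A and SNORD119, with log2 ratios of 1.32, 1.34, 1.37, 1.23 and 1.46, which lie within 0.133 of it. Likeness here is the difference of log2 ratios over 2 pooled values, and rows of very different abundance share it. SNORD50B went from 1.24 to 3.25 sense CPM, SNORD18A from 19.1 to 45.0 and SNORD119 from 28.9 to 79.6. SNORD117 went from 0.54 to 1.55 and SNORA71B, a box H/ACA snoRNA, from 0.70 to 1.92. All but SNORA71B are of the box C/D kind, as are SCARNA9L and 64 of the 81 snoRNA rows compared.

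The rows nearest to SCARNA9L in mean level were box C/D snoRNAs with ratios from 1.02 to 3.19. SNORD43 went from 163.5 to 167.1 sense CPM, a ratio of 1.02 (0.963 to 1.09). SNORD27, with 122.7 and 173.0, had a ratio of 1.41 (1.32 to 1.50), and SNORD26, with 98.8 and 158.3, one of 1.60 (1.49 to 1.72). SNORD63 went from 65.0 to 207.1, a ratio of 3.19 (2.95 to 3.45). SNORD50A, the fifth of these rows, went from 304.8 to 339.9, a ratio of 1.115 (1.069 to 1.164). Among these 5 rows the ratio of SCARNA9L was thus above those of SNORD43, SNORD27, SNORD26 and SNORD50A beyond counting error, and below that of SNORD63. The 3 most abundant snoRNA rows were SNORD44, SNORD74 and SNORD30, with ratios of 0.941 (0.921 to 0.961), 1.13 (1.09 to 1.16) and 1.32 (1.28 to 1.37). The cut at 3 was close, since SNORD31 had a mean of 532.5 sense CPM against 532.6 for SNORD30. SNORD31, looked up after the values were seen, went from 380.9 to 684.2.

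The share of the small guide RNA signal held by scaRNAs was small in both genotypes. SCARNA9L corresponded to 2.23% of the summed sense CPM of the 96 snoRNA rows in Caco2 WT and to 4.05% in PIWIL2 KO, while the snoRNA sum itself had a ratio of 1.38 (1.37 to 1.40). The 7 SCARNA rows held 2.02% and 3.54% of the sense CPM of the whole table. Box C/D RNAs made up most of the snoRNA signal. They made up most of the scaRNA signal through SCARNA9L alone, since SCARNA7, the other box C/D scaRNA, had 0.54 and 1.70 sense CPM. The 68 box C/D snoRNA rows summed to 4373 and 6029 sense CPM against 20.8 and 37.9 for 28 box H/ACA rows, and the box C/D scaRNAs to 98.6 and 247.6 against 7.91 and 10.2 for the 4 box H/ACA scaRNAs.

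The scaling affects what can be said of direction. Raw CPM and scaling to the median of protein-coding rows (a log2 shift of 0.07) gave SCARNA9L log2 ratios of 1.33 and 1.39. When PIWIL2 KO was scaled down to the sum of all sense rows (a shift of -0.43) its log2 ratio was 0.90, and when it was scaled to the median of snoRNA rows (a shift of -0.68) it was 0.65. The snoRNA rows hold most of the sum of all sense rows, 4393 of 5511 CPM in Caco2 WT and 6066 of 7409 in PIWIL2 KO. Both of the latter scalings thus rest mainly on snoRNA rows. SCARNA9L, SCARNA7, SCARNA13 and SCARNA18 remained higher under each scaling, though none by 2-fold with scaling to the median of snoRNA rows. SCARNA4 changed sides, with log2 ratios of -0.24 at the shift of -0.43 and -0.49 at the shift of -0.68. SCARNA12 remained lower under every scaling.

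Reads of SCARNA9L and SCARNA9 cannot always be told apart by sequence. Of the 326 stretches of 20 bases in SCARNA9L, 58.0% occur at 1 place in GRCh37 and 31.9% occur in SCARNA9 as well. For stretches of 30 bases these shares were 79.7% and 18.7%. The remaining stretches of either length occur at places other than SCARNA9, and a stretch of 20 bases occurs at up to 612 places. Stretches shorter than 20 bases were not searched. In the other 6 scaRNA genes, 91.3% to 99.6% of the 20-base stretches and 100% of the 30-base stretches occur at 1 place. How the authors assigned reads with several places to rows is not given in the sources used here, and the part of SCARNA9 reads in the SCARNA9L values was not tested. The SCARNA9L values are uncertain in this respect.

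**Figure D4:**
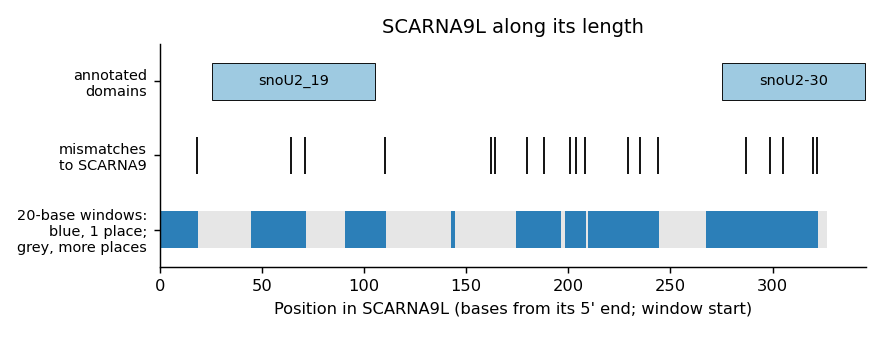
SCARNA9L along its length, in bases from its 5′ end, with the annotated guide domains (top), the 19 mismatches to SCARNA9 (middle) and the starts of 20-base stretches that occur at 1 place in the genome (blue) or at more places (grey). Of the stretches wholly within snoU2-30, 47 of 51 occur at 1 place, against 27 of 61 within snoU2_19.

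Genes that work with scaRNAs were hardly represented in the table. Lists of box C/D and box H/ACA ribonucleoproteins, Cajal body proteins and PIWI proteins had 0 genes with a row, PIWIL2 included, so the targeted gene could not be checked. Of the spliceosomal RNAs, which are the targets of scaRNAs, 1 of 20 had a row, namely RNU6ATAC at 0.08 and 0.05 sense CPM. Of 10 host genes, 3 had a row. KPNA4, the host of SCARNA7, had 0.08 and 0.30 sense CPM, NCAPD2 had 0.08 and 0.07, and SNHG10 repeated the SCARNA13 values. The signal of SCARNA7 was above that of its host row by 7 reads against 1 in Caco2 WT and 23 against 4 in PIWIL2 KO. Among other structured RNAs of the nucleus, RPPH1, the RNA of RNase P, went from 21.7 to 40.9 sense CPM, a ratio of 1.88 (1.63 to 2.18), and RMRP, the RNA of RNase MRP, from 15.1 to 20.3, a ratio of 1.34 (1.11 to 1.62). The ratio of SCARNA9L was above both beyond counting error. Of 10 colon epithelial markers, 3 (CDH1, KRT8 and HNF4A) had rows, none above a mean of 0.20 CPM, so short RNA of these rows does not check the cell type.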

How the data were processed

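Libraries were made from 6 samples, 3 for each genotype. According to the study's methods, Cutadapt 1.15 removed the adapter and piPipes did the counting on hg19. The authors deposited sense CPM, scaled to uniquely mapped reads, with 1 value per genotype that is taken here as pooled over its samples. The antisense values were deposited on the same scale, which for reads equals RPM. Rows are named as RefSeq 3′ UTRs with a start but no end. Of 3437 rows, 3382 matched a RefSeq symbol (names only). Members and gene lists were chosen with earlier results of these data known.

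The CPM worth of 1 read was the step that made the largest share of values up to 10 CPM in SCARNA and snoRNA rows whole within 0.006 CPM (89.2% in Caco2 WT and 84.6% in PIWIL2 KO). It corresponds to about 12900000 and 13500000 uniquely mapped reads. Since not all values were whole, no count test was run. Intervals were Clopper-Pearson for ratios and Poisson for levels. Only the ratio intervals were tried on simulated data, which were whole independent Poisson reads. That setting holds no amplified reads and no values that were not whole, so it does not show how the intervals behave with them.

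Gene ends, host genes and sequences came from GENCODE release 44 mapped to GRCh37. Of the SCARNA starts, 6 of 7 equalled an annotated start, and the 5′ end of SCARNA9L was found by local alignment with SCARNA9 (Biopython). Named rows were all SCARNA rows, the 5 snoRNA rows nearest in log2 ratio, the 5 nearest in mean, the 3 most abundant, and the listed genes above 0. Python, numpy, pandas and scipy were used.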

Additional observations from a re-analysis of the deposited data

How the results depend on the processing

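No paired analysis was possible because the 3 samples of a genotype share 1 deposited value per row and strand. Leaving out each replicate was not possible for the same reason. SCARNA9L remained higher in PIWIL2 KO under the 5 alternatives for its log2 ratio. With PIWIL2 KO rescaled to the sum of all sense rows, its log2 ratio was 0.90 and 21 snoRNA rows were at least 2-fold higher, and with rescaling to the median of snoRNA rows the log2 ratio was 0.65. With a pseudocount of 1 CPM, SCARNA9L lay 0.78 above the snoRNA median, 11 snoRNA rows had a higher log2 ratio and 18 were at least 2-fold higher. With a minimum mean of 10 sense CPM, these values were 0.84, 3 and 5, over 32 rows. The other 15 values stayed within their counting interval or within 1.5 times the count. The antisense value of 0 cannot change with scaling. Depth limits SCARNA18 and SCARNA8, and the ratios of SCARNA7 and SCARNA13.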
